A study of Mus musculus with 6 samples.

Results

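The STAT genes encode latent transcription factors of the cytoplasm, and 6 of them were followed here in CD4 T cells that carried a Blimp-1 retrovirus or the empty vector: Stat2, Stat3, Stat4, Stat5a, Stat5b and Stat6. They were taken from the deposited expression table by gene symbol. That rule used no measured value, though earlier results of these data were known when it was chosen. They are 6 of its 22624 genes and hold 10 of its 29868 listed RefSeq transcripts. All 6 passed the filter on low values.

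A cytokine receptor that binds its ligand brings together JAK kinases, which phosphorylate a tyrosine near the end of a STAT protein. The phosphorylated proteins pair, enter the nucleus and bind DNA. In CD4 T cells, Stat4 relays IL-12, Stat6 relays IL-4, Stat5a and Stat5b relay IL-2 and IL-7, Stat3 relays IL-6, IL-10 and IL-21, and Stat2 relays type I interferon. The activity of a STAT is set largely by this phosphorylation, which RNA sequencing does not measure.

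RNA was measured in 6 libraries, 3 with each vector. The Blimp1 group carried the MigR1 retrovirus with a cDNA of Blimp-1, the transcriptional repressor encoded by Prdm1, and the MigR1 group carried the same vector without an insert. Both groups were wild-type C57/BL6 naive CD4 T cells (CD4+ CD44lo CD62L+ CD25neg) of spleen and lymph node, and no age is given. In both, plate-bound anti-CD3 and anti-CD28 were the stimulus, anti-IFN-g and anti-IL-4 blocked those cytokines, and cells were transduced after 36 hours and sorted for the vector's GFP. The series title names Blimp-1 antagonism of STAT5 target genes as its subject. The cells were undifferentiated (Th0), the Blimp-1 came from a retrovirus, and retroviral Prdm1 RNA adds to that of the cells' own gene.

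Prdm1 itself had 9.91, 12.8 and 9.45 FPKM (reads scaled to transcript length and library size) in Blimp-1 replicates 1, 2 and 3, against 0.996, 2.03 and 1.38 FPKM in empty vector replicates 1, 2 and 3. Estimated depth was 35.6 to 48.7 M reads in Blimp-1 libraries and 18.1 to 40.5 M in empty vector libraries. T cell markers summed to 1649.9 to 1826.6 FPKM with Blimp-1 and 1638.3 to 1960.3 FPKM with the empty vector. NK cell markers, 5 genes, summed to 14.4 to 42.9 FPKM with Blimp-1 and 3.74 to 30.1 FPKM with the empty vector. Most of this was Klrd1, at 12.8 to 30.4 FPKM with Blimp-1 and 3.16 to 26.2 FPKM with the empty vector. Gzma was at most 7.58 FPKM, Klrk1 at most 4.87 FPKM and Klrb1c at most 0.0222 FPKM, and Ncr1 was 0 in all libraries. The part of these genes in the results was not tested. Sums of B cell, myeloid and dendritic cell markers were at most 6.29 FPKM in any library. Empty vector replicate 3 stood apart from the other libraries in several STAT target genes given below, and values without it are given beside the results that it moved most.

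The transcripts listed for Stat3 and Stat5a differ in coding bases that bear on what the protein can do, and these bases are shown here. The transcripts also differ in their first or last exons, so the transcript values below do not measure these bases alone. Transcript models were GENCODE M21 models on GRCm38 that GENCODE matches to the RefSeq names. In the lines that follow, capitals mark the bases that 1 transcript lacks, and lower case marks 40 bases of spliced transcript on each side, written 5′ to 3′. The Stat3 bases absent from NM_011486 lie in exon 23 of 24 of NM_213659 at chr11:100889541-100889590 (minus strand). The Stat3 bases absent from NM_213660 lie in exon 21 at chr11:100893074-100893076 (minus strand). The Stat5a bases absent from NM_001164062 are exon 18 of 20 of NM_011488 at chr11:100881738-100881789 (plus strand).
Stat3 50 bases: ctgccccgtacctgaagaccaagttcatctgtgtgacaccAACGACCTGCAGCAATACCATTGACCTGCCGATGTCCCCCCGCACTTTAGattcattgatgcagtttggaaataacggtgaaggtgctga
Stat3 3 bases: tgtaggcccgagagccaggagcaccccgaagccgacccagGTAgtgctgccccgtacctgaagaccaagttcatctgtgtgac
Stat5a 52 bases: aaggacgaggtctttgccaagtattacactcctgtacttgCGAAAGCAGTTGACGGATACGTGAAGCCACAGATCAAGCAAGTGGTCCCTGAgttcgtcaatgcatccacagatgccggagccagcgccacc

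NM_011486 encodes the β form of Stat3. The 50 bases it lacks are not a multiple of 3, so the reading frame shifts, and the coding sequence has 2166 bases in place of 2310. The serine codon of the transactivation domain lies within the capitals, and the codon of the JAK-phosphorylated tyrosine lies upstream of them in lower case, where the β form keeps it. NM_213660 encodes an α form shorter by 3 coding bases, 2307 in all. In Stat5a the codon of the JAK-phosphorylated tyrosine is within the 52 bases in capitals, so the model of NM_001164062 has none at that place; its coding sequence has 2391 bases, against 2379 in NM_011488.

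The bases before a Stat2 start are shown because they hold a match to the motif of the complex that contains Stat2. The line is the 250 bases before a start in the RefSeq promoter table on GRCm38.p6, chr10:128270248-128270497 (plus strand). Stat5b has 2 transcripts that differ in their first exon with no coding base unshared, and its windows of the same length are chr11:100850582-100850831 and chr11:100822571-100822820 (minus strand). Capitals mark a match on either strand to the interferon response element core, GAAANNGAAA, or to the Blimp-1 core, GNGAAAG.
Stat2: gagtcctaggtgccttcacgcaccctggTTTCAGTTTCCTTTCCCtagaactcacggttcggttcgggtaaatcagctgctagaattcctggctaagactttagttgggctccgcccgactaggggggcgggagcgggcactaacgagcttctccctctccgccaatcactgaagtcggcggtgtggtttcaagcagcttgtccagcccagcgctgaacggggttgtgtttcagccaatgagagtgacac

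The Stat2 window held 1 match to each motif, side by side and not overlapping. Over 32851 promoter windows, 2.98% held GAAANNGAAA and 19.4% held GNGAAAG. The STAT dimer motif TTCNNNGAA, present in 7.02% of windows, had no match in any window of the 6 genes. A window of Stat4 that ends beside the start of NM_011487 also held 1 interferon response element match, and the Stat6 window held 1 Blimp-1 core match. The model of NM_001113563 begins within the upstream Stat5b window, so that the last 143 bases of the window belong to the transcript. That window was 82.0% G and C with 40 CpG, and the downstream window 46.4% with 5 CpG. A match describes letters and is no measured site.

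All 6 genes were expressed in both groups, and their order of level per length was Stat4, Stat3, Stat5b, Stat6, Stat5a and Stat2, by the mean over the 6 libraries. Among the 10864 tested genes ranked by mean FPKM, the percentile was 92.4 for Stat4, 91.3 for Stat3, 89.7 for Stat5b, 87.6 for Stat6, 78.7 for Stat5a and 61.7 for Stat2. The first 3 pairs of neighbours in that order overlapped: Stat4 was above Stat3 in 4 of 6 libraries, Stat3 above Stat5b in 6 of 6 and Stat5b above Stat6 in 5 of 6. Stat6 and Stat5a did not overlap over the libraries, and neither did Stat5a and Stat2.

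**Figure D1:**
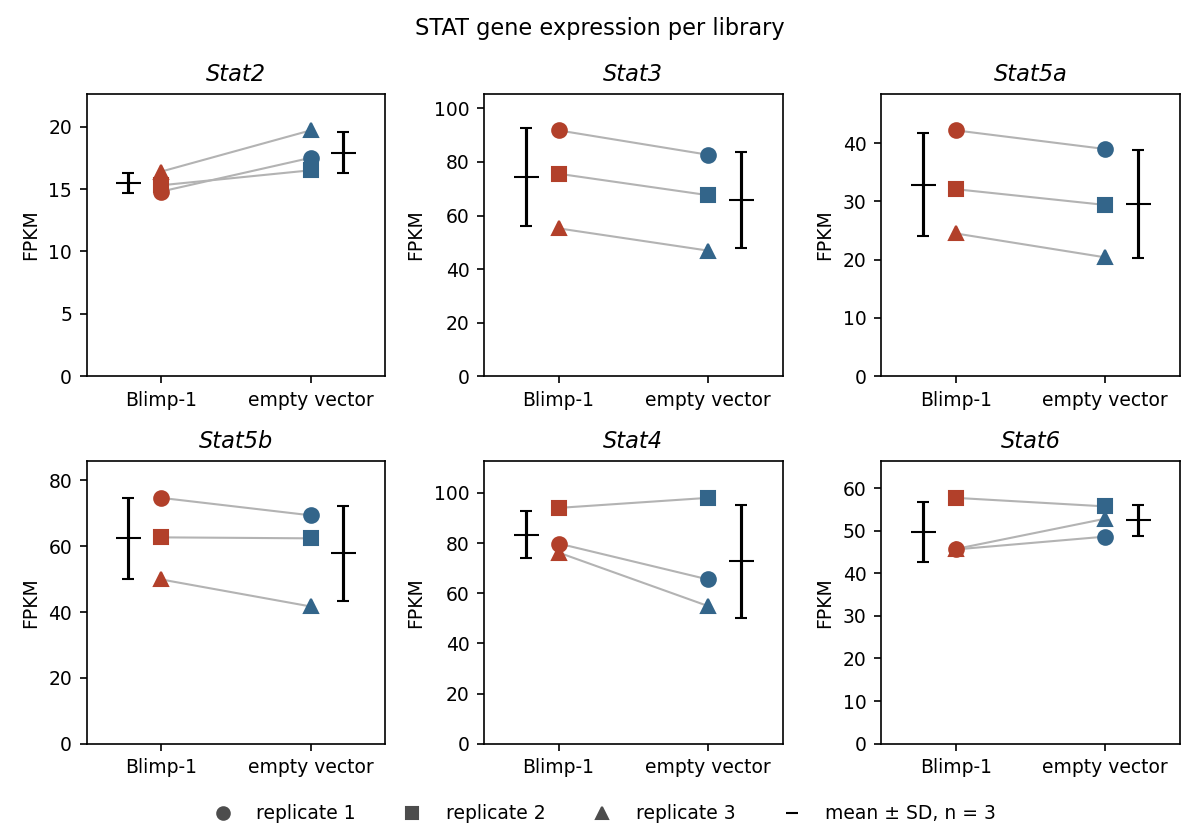
FPKM of each STAT gene per library, with Blimp-1 libraries on the left and empty vector libraries on the right of each panel, symbols marking replicate numbers, grey lines joining same-numbered libraries and black bars the mean ± SD (n = 3). Stat2 is the gene whose groups do not overlap, with Blimp-1 libraries between 14.8 and 16.4 FPKM and empty vector libraries between 16.5 and 19.7 FPKM.

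Stat2 forms the interferon-activated complex with another STAT protein and Irf9. It had 14.8, 15.3 and 16.4 FPKM in Blimp-1 replicates 1, 2 and 3, against 17.5, 16.5 and 19.7 FPKM in empty vector replicates 1, 2 and 3. Each Blimp-1 library lay below every empty vector library, though by as little as 16.4 against 16.5 FPKM. The means were 15.5 ± 0.795 FPKM with Blimp-1 and 17.9 ± 1.63 FPKM with the empty vector (SD, n = 3 each). The log2 fold change was −0.19 (SE 0.12, 95% interval −0.48 to 0.10), with an adjusted p of 0.998 by limma over all 10864 tested genes. With the replicate number as a block the interval was −0.36 to −0.02, with a limma p of 0.0317 and an adjusted p of 0.211. Without empty vector replicate 3 the log2 fold change was −0.12 in the fit without the block. Without both replicate 3 libraries it was −0.16 with the block. Of all tested genes, 2.34% were lower without overlap.

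Stat3 is the effector of IL-6, IL-10 and IL-21 and is required for Th17 cells. Its summed level was 91.8, 75.6 and 55.2 FPKM in Blimp-1 replicates 1, 2 and 3, against 82.7, 67.6 and 46.9 FPKM in empty vector replicates 1, 2 and 3. The Blimp-1 library was the higher in each of the 3 numbered pairs, while the groups overlapped over most of their range. Means were 74.2 ± 18.3 FPKM with Blimp-1 and 65.7 ± 18 FPKM with the empty vector (SD, n = 3 each), a log2 fold change of 0.18 (SE 0.26, limma adjusted p = 0.998). With the block, the 95% interval was 0.03 to 0.33 (limma across all genes, unadjusted p = 0.0275, adjusted p = 0.202 by limma). Without empty vector replicate 3, which leaves Blimp-1 replicate 3 without its pair, the log2 fold change without the block was −0.04. The 3 pair differences were 0.15, 0.16 and 0.23 in replicates 1, 2 and 3. Without both replicate 3 libraries, the log2 fold change with the block was 0.15.

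Stat5a and Stat5b are near-identical copies that carry the IL-2 signal, and reads that fit both genes can have been split between them by the quantification. Stat5a had 42.2, 32.1 and 24.5 FPKM in Blimp-1 replicates 1, 2 and 3, against 39.0, 29.4 and 20.4 FPKM in empty vector replicates 1, 2 and 3. Stat5b had 74.7, 62.7 and 49.9 FPKM in Blimp-1 replicates 1, 2 and 3, against 69.4, 62.4 and 41.7 FPKM in empty vector replicates 1, 2 and 3. Both were higher with Blimp-1 in 3 of 3 pairs, by as little as 0.01 on the log2 scale for Stat5b in replicate 2, and both overlapped between the groups. The log2 fold changes were 0.16 (SE 0.27) for Stat5a and 0.12 (SE 0.23) for Stat5b, each with a limma adjusted p of 0.998. With the block, adjusted p was 0.25 for Stat5a and 0.387 for Stat5b by limma. Without empty vector replicate 3, the log2 fold changes without the block were −0.07 for Stat5a and −0.09 for Stat5b, and without Blimp-1 replicate 1 they were −0.03 and −0.02. Each of these leaves 1 library without its pair. With the block, they were 0.12 and 0.06 without both replicate 3 libraries, and 0.19 and 0.13 without both replicate 1 libraries. Of all tested genes, 22.8% were higher in 3 of 3 pairs and 22.8% lower in 3 of 3, against 3 and 1 of the 6 STAT genes. The 3 higher genes share a profile over the libraries, given below, and are not independent of each other.

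The share of Stat5a in the sum of both genes was 36.1%, 33.9% and 32.9% in Blimp-1 replicates 1, 2 and 3, against 35.9%, 32% and 32.9% in empty vector replicates 1, 2 and 3. Both groups thus drew about the same share from the Stat5a gene: 34.3% ± 1.6 with Blimp-1 and 33.6% ± 2.1 with the empty vector (SD, n = 3 each). The difference of 0.672 percentage points had an exact permutation p of 0.5, two-sided, where the smallest p that 20 splits allow is 0.1. Adjusted over the 6 shares compared, it was 0.9 by the exact permutation test.

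Stat4, through which IL-12 drives Th1 cells, had 79.8, 94.0 and 76.2 FPKM in Blimp-1 replicates 1, 2 and 3, against 65.5, 98.0 and 54.9 FPKM in empty vector replicates 1, 2 and 3. Replicate 2 was the highest library of both groups, and in that pair the Blimp-1 library was the lower. Means were 83.3 ± 9.38 FPKM with Blimp-1 and 72.8 ± 22.5 FPKM with the empty vector (SD, n = 3 each). The log2 fold change was 0.23 (SE 0.22, limma adjusted p = 0.998, and 0.298 with the block). In the fit without the block it was 0.05 without empty vector replicate 3, 0.46 without empty vector replicate 2 and 0.14 without Blimp-1 replicate 2. With the block, it was 0.37 without both replicate 2 libraries and 0.11 without both replicate 3 libraries.

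Stat6, through which IL-4 drives Th2 cells, had 45.6, 57.7 and 45.7 FPKM in Blimp-1 replicates 1, 2 and 3, against 48.6, 55.7 and 52.8 FPKM in empty vector replicates 1, 2 and 3. The groups overlapped, and 1 of 3 pairs was higher with Blimp-1. The log2 fold change was −0.08 (SE 0.14, limma adjusted p = 0.998, and 0.56 with the block), and leaving out 1 Blimp-1 library gave −0.03 without replicate 1 or 3 and −0.19 without replicate 2. Stat6 also had the narrowest range over the 6 libraries, 0.33 on the log2 scale, against 1.01 for Stat5a, the widest.

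**Figure D2:**
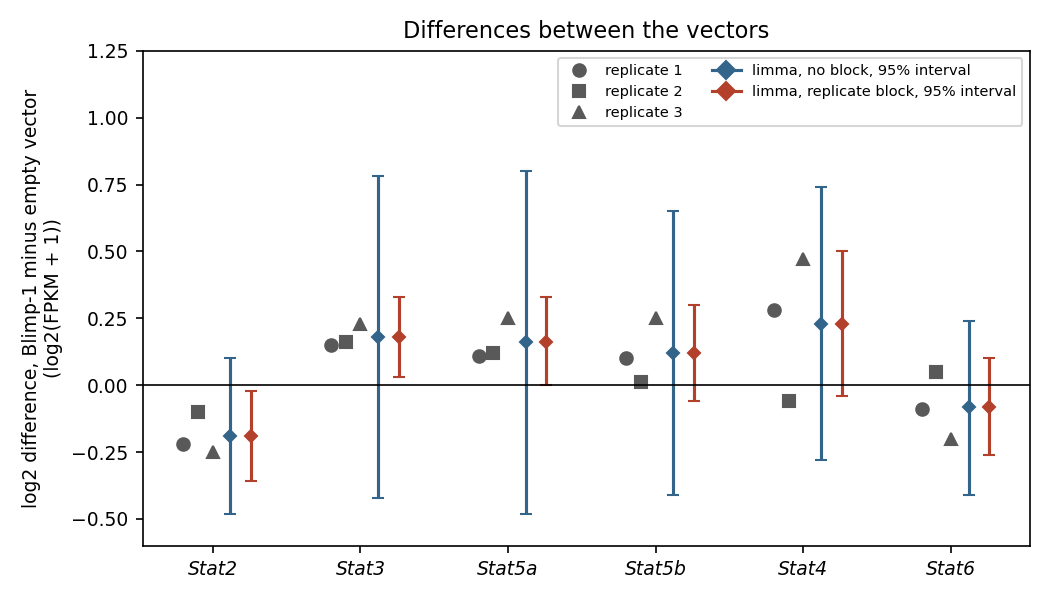
Log2 differences, Blimp-1 over empty vector, for each STAT gene: symbols show the 3 numbered pairs, and diamonds with bars show limma estimates with 95% intervals without and with the replicate block. With the block, the intervals of Stat2 (−0.36 to −0.02) and Stat3 (0.03 to 0.33) lie on 1 side of 0 before adjustment.

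None of the 6 genes passed an adjusted p of 0.05 in either fit. Without the block, 0% of the tested genes passed by limma, while 123 had an unadjusted p under 0.05. With the block, 0.0184% passed, which was Prdm1, higher, and Igfbp4, lower. Unadjusted p under 0.05 with the block was met by 2 of the 6 STAT genes, Stat2 and Stat3, and by 20.5% of all tested genes. The 2.29% of genes that were higher without overlap included none of the 6. In these bulk samples, fewer cells of a type and less RNA per cell cannot be told apart.

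Stat3, Stat5a and Stat5b shared a pattern over the libraries. They lie next to each other on chromosome 11, in the order Stat5b, Stat5a, Stat3. All 3 were highest in replicate 1 and lowest in replicate 3 with either vector, and the replicate means spanned 0.76 for Stat3, 0.83 for Stat5a and 0.65 for Stat5b on the log2 scale, more than the mean difference between the vectors of 0.18, 0.16 and 0.12. Likeness was measured as the root mean square difference of centred log2(FPKM + 1) over the 6 libraries, among 8087 genes at a mean of 5 FPKM or more. By that measure Stat5a was the gene most like Stat3 of all 8087 (0.046), Stat3 was second for Stat5a after Smo (0.045), and Stat5b ranked 11th for Stat3 (0.068) and 14th for Stat5a (0.094). The genes most like Stat5b were Fam168b (0.036), Zfp622 (0.047) and Rab22a (0.048), with Stat3 in place 17 and Stat5a in place 59. The 6 points of each profile come from the same 6 libraries, which differ in depth, so the likeness is a description.

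**Figure D3:**
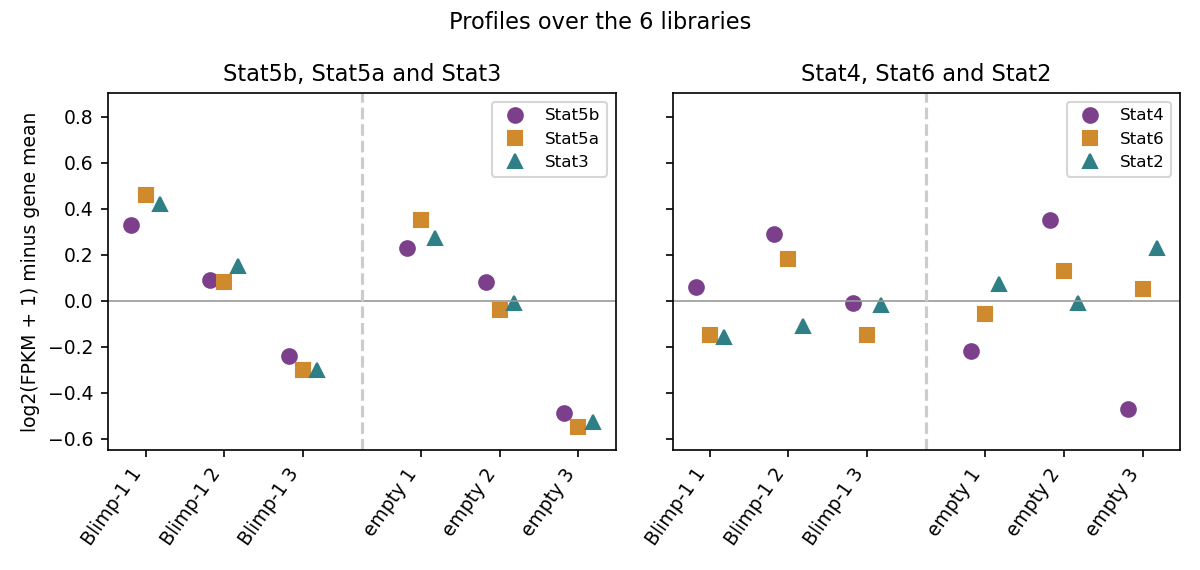
Log2(FPKM + 1) minus each gene's mean over the 6 libraries, with Blimp-1 libraries left of the dashed line and empty vector libraries right of it. Stat5b, Stat5a and Stat3 are highest in replicate 1 and lowest in replicate 3 on both sides, while Stat4, Stat6 and Stat2 have other patterns.

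The other 3 genes had other profiles. Genes among those most like Stat2 were 9130221H12Rik (0.022) and Ap5s1 (0.023). Those most like Stat4 were Cep68 (0.028), Paqr7 (0.035) and Rin3 (0.036), and those most like Stat6 were Trim32 (0.017), 2610507B11Rik (0.027) and Psd4 (0.028). The remaining closest genes to Stat3 were Itprid2 (0.048) and D130020L05Rik (0.055), and to Stat5a, Rnf19a (0.055).

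Stat3 RNA was mostly assigned to the α transcript NM_213659, with a smaller part on the β transcript. The β transcript NM_011486 took 23.9%, 18.3% and 17.4% in Blimp-1 replicates 1, 2 and 3, against 22.5%, 13.9% and 15.7% in empty vector replicates 1, 2 and 3. It was higher with Blimp-1 in 3 of 3 pairs, by 1.4, 4.4 and 1.8 percentage points, while the groups overlapped. The difference of the means was 2.52 points, at 19.9% ± 3.5 with Blimp-1 and 17.4% ± 4.5 with the empty vector (SD, n = 3 each, exact permutation p = 0.5, adjusted 0.9). Flipping the signs of the 3 pairs gave an exact p of 0.25, the smallest that 3 pairs allow. NM_213659 took 57.6% ± 2.4 with Blimp-1 and 58.4% ± 7.0 with the empty vector, and NM_213660 took 22.5% ± 2.1 with Blimp-1 and 24.2% ± 3.5 with the empty vector (SD, n = 3 each, exact permutation adjusted p = 0.96 and 0.9). The 3 models also differ in the length of their last exon, 3663 bases in NM_011486, 1951 in NM_213659 and 525 in NM_213660, so the split rests on both the spliced bases and the ends. The end of NM_011486 overlaps that of Stat5a NM_011488 by 72 bases in these models, and no strand setting is given in the sources used here, so reads there cannot be told apart.

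**Figure D4:**
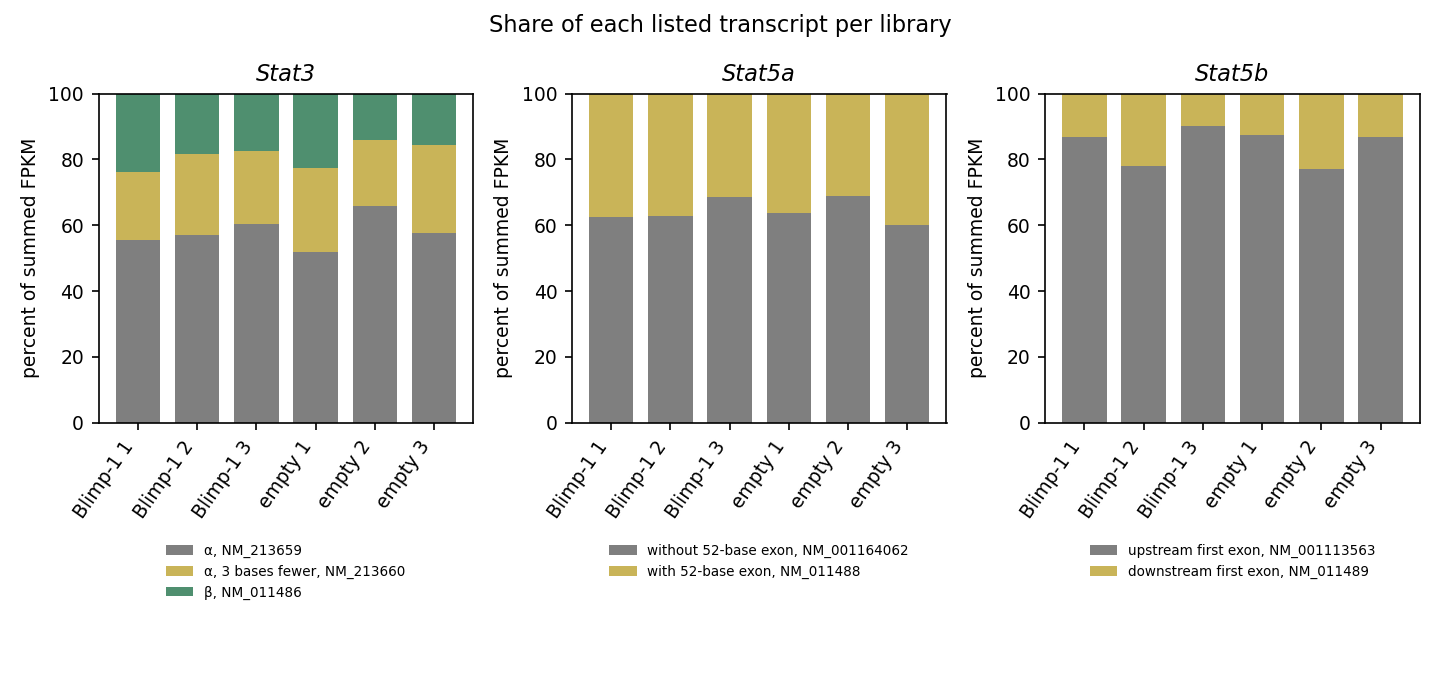
Share of the summed FPKM that each listed transcript of Stat3, Stat5a and Stat5b took in each library, with Blimp-1 libraries left and empty vector libraries right. The Stat3 β transcript took 17.4% to 23.9% with Blimp-1 and 13.9% to 22.5% with the empty vector.

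The Stat5a transcript whose model lacks the tyrosine exon was the more abundant one in all 6 libraries. NM_001164062 took 62.6%, 62.9% and 68.7% in Blimp-1 replicates 1, 2 and 3, against 63.8%, 69.0% and 60.0% in empty vector replicates 1, 2 and 3. The groups overlapped and differed by 0.48 points in their means (exact permutation p = 1.0). This is the authors' assignment of 50-cycle single reads to models that also differ in their first exons, so it does not measure reads across the exon itself. For Stat5b, NM_001113563, whose start lies inside the G and C rich window, took 86.8%, 78.0% and 90.1% in Blimp-1 replicates 1, 2 and 3, against 87.3%, 77.0% and 86.8% in empty vector replicates 1, 2 and 3. Its share was lowest in replicate 2 of both groups, and the means differed by 1.28 points (exact permutation p = 0.6, adjusted 0.9).

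No gene of the pathway lists passed in either fit. All lists were chosen with earlier results of these data known, so their counts and medians are descriptions. Of the 4 JAK kinases, Jak2 and Jak3 were higher with Blimp-1 in 3 of 3 pairs, as were 22.8% of all tested genes. The median log2 fold change was 0.11, against −0.01 over all tested genes. The median was 0.03 without empty vector replicate 3 and 0.24 without Blimp-1 replicate 3, the lowest and highest with 1 library left out. Jak1 and Jak3, which serve the IL-2 receptor with Stat5, had log2 fold changes of 0.07 (SE 0.25) and 0.16 (SE 0.21). Jak2, used by the IL-12 receptor, had 55.7, 53.9 and 39.3 FPKM in Blimp-1 replicates 1, 2 and 3, against 41.8, 49.5 and 26.2 FPKM in empty vector replicates 1, 2 and 3, a log2 fold change of 0.36 (SE 0.25, limma adjusted p = 0.998, and 0.159 with the block). Tyk2, used by the interferon receptors, had −0.03 (SE 0.11).

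Of 18 receptor genes that signal to STATs, 17 were tested. In 3 of 3 pairs, 4 were higher and 7 lower, beside 22.8% of all tested genes in each direction. The median was −0.02, or −0.12 to 0.06 with 1 library left out. Il10ra, the IL-10 receptor chain upstream of Stat3, had 9.95, 16.1 and 13.2 FPKM in Blimp-1 replicates 1, 2 and 3, against 13.9, 21.7 and 18.6 FPKM in empty vector replicates 1, 2 and 3. Each Blimp-1 library was below its pair while the groups overlapped, at a log2 fold change of −0.44 (SE 0.22, limma adjusted p = 0.998, and 0.141 with the block). Il7r, a receptor chain upstream of Stat5, had a log2 fold change of 0.54 (SE 0.50), with pair differences of 0.00, 0.10 and 1.51 in replicates 1, 2 and 3 and 22.3 FPKM in empty vector replicate 3. The others at the extremes of the list had 0.28 (SE 0.16) for Il12rb1 and −0.29 (SE 0.26) for Il2ra.

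Among 20 inhibitors, 9 were higher and 6 lower in 3 of 3 pairs, beside 22.8% of all tested genes in each direction. The median was 0.01, or −0.05 to 0.05 with 1 library left out. Socs1, an inhibitor of JAKs, had 21.2, 18.3 and 20.5 FPKM in Blimp-1 replicates 1, 2 and 3, against 28.9, 23.2 and 82.2 FPKM in empty vector replicates 1, 2 and 3. Its groups did not overlap, and 2.34% of all tested genes were lower without overlap. Empty vector replicate 3 was far above the other libraries for Socs1. Socs7 was the 1 inhibitor that was higher without overlap, beside 2.29% of all tested genes. The log2 fold changes were −0.90 (SE 0.42) for Socs1, −0.76 (SE 0.26) for Usp18, an inhibitor of the interferon receptor that is bound to Stat2, 0.32 (SE 0.14) for Socs7 and 0.26 (SE 0.22) for Socs5. Nuclear partners and coactivators were a loose grouping of 9 genes. Of these 9, 5 were higher and 2 lower in 3 of 3 pairs, beside the same 22.8% of all tested genes in each direction. Their median was 0.09, or −0.04 to 0.19 with 1 library left out. Ncoa1 (0.27) and Kpna1 (0.25) were highest and Ndufa13 (−0.25) and Nmi (−0.22) lowest by log2 fold change.

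**Figure D5:**
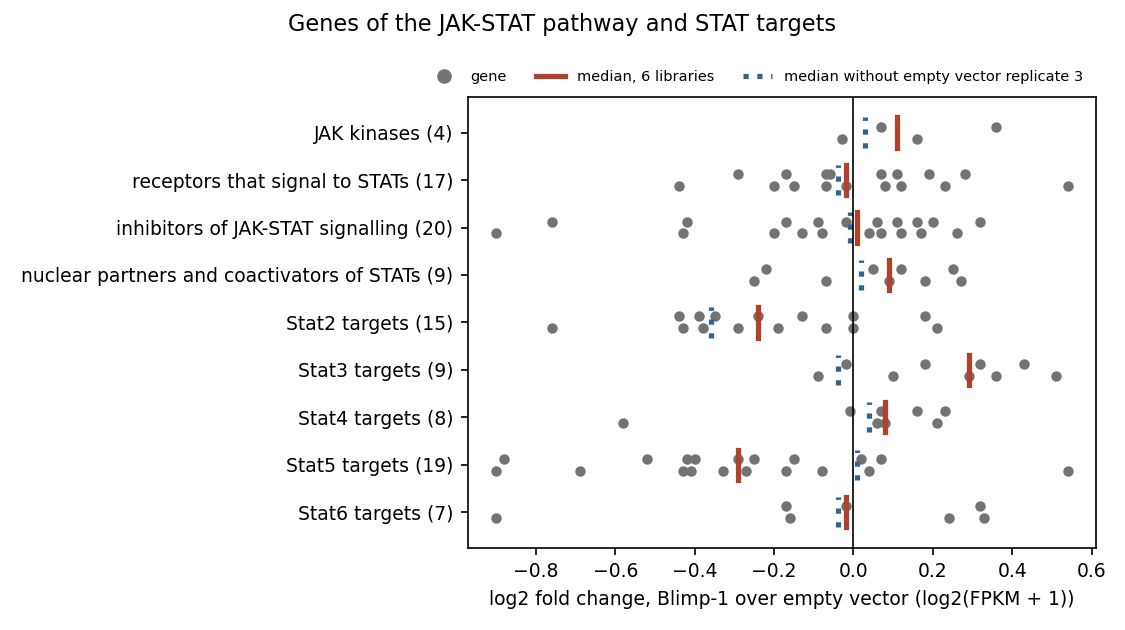
Log2 fold changes, Blimp-1 over empty vector, of each tested gene of the pathway and target lists, with the number tested in brackets, the median over all 6 libraries as a red line and the median without empty vector replicate 3 as a dotted blue line. The medians of Stat3 and Stat5 targets lie at 0.29 and −0.29 with all libraries, and at −0.04 and 0.01 without that library. Leaving it out breaks the replicate 3 pair. Within pairs 1, 2 and 3 the medians were 0.31, 0.14 and 0.37 for Stat3 targets. For Stat5 targets they were −0.14, 0.08 and −0.81.

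Leaving 1 library out of the fit without the block breaks a pair. The medians of the Stat5 and Stat3 target lists then moved most without empty vector replicate 3. The 19 tested Stat5 targets had a median log2 fold change of −0.29, and 0.01 without that library. With another library left out, the median was −0.51 to −0.27. In 3 of 3 pairs, 9 were lower and 1 higher, beside 22.8% of all tested genes in each direction. The median log2 differences within pairs 1, 2 and 3 were −0.14, 0.08 and −0.81. Socs1, Pim1, Pim2, Osm and Lta were the 5 lower without overlap, beside 2.34% of all tested genes. The list was chosen with earlier results of these data known, so this count is no test. Lta, the gene of lymphotoxin-α, had 19.9, 19.0 and 19.9 FPKM in Blimp-1 replicates 1, 2 and 3, against 23.3, 20.2 and 104.0 FPKM in empty vector replicates 1, 2 and 3. Il7r (0.54, nearly all of it from the replicate 3 pair) and Ccnd2 (0.07) had the highest log2 fold changes of the list. The 9 tested Stat3 targets had a median of 0.29, with 5 higher and 0 lower in 3 of 3 pairs, beside 22.8% of all tested genes in each direction. Within pairs 1, 2 and 3 the median log2 differences were 0.31, 0.14 and 0.37. The median was −0.04 without empty vector replicate 3, 0.08 without Blimp-1 replicate 1 and 0.23 to 0.46 without each of the others. Bcl6 (0.43) was among the highest and Socs3 (−0.09) and Batf (−0.02) were lowest by log2 fold change. Stat3 is itself in that list and 1 of the 5: the other 8 genes had a median of 0.30, with 4 higher in 3 of 3 pairs.

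The 15 Stat2 targets, which are interferon-induced genes, had a median log2 fold change of −0.24. In 3 of 3 pairs, 5 were lower and 0 higher, beside 22.8% of all tested genes in each direction. The median log2 differences within pairs 1, 2 and 3 were −0.45, −0.29 and 0.06. Leaving out 1 library from the fit without the block, which breaks a pair, gave medians of −0.39 (Blimp-1 replicate 2) to −0.09 (empty vector replicate 2). It gave −0.11 without Blimp-1 replicate 1 and −0.36 without empty vector replicate 3. Stat2 is itself in that list and 1 of the 5. The other 14 genes had a median of −0.27, with 4 lower in 3 of 3 pairs, and the median was 0.04 without empty vector replicate 2 and −0.04 without Blimp-1 replicate 1. Usp18 had 6.38, 10.8 and 6.14 FPKM in Blimp-1 replicates 1, 2 and 3, against 13.2, 18 and 10.1 FPKM in empty vector replicates 1, 2 and 3, and its adjusted p was 0.998 by limma and 0.141 with the block. Each Blimp-1 library was below its pair, and the groups overlapped. Oas2 (−0.44) was next lowest, and Ifi44 (0.21) and Mx1 (0.18) were highest by log2 fold change. The 8 tested Stat4 targets had a median of 0.08, or −0.02 to 0.28 with 1 library left out, with Il12rb2 (0.23) and Il18rap (0.21) highest and Gadd45g (−0.58) and Gadd45b (−0.01) lowest. The 7 tested Stat6 targets had a median of −0.02, or −0.12 to 0.06 with 1 library left out, with Ccr8 (0.33) and Maf (0.32) highest and Socs1 (−0.90) and Il4ra (−0.17) lowest. The lists share genes and are not independent. Socs1 is also in the inhibitor and Stat5 target lists, Il4ra in the receptor and Stat5 target lists and Maf in the Stat3 target list. Usp18 is in the inhibitor and Stat2 target lists, and Il7r in the receptor and Stat5 target lists.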

How the data were processed

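The authors deposited FPKM per RefSeq transcript, on build mm9 per the submitters' processing notes, which name CASAVA 1.8.2, Cufflinks 2.2 and Partek 6.6 with no role or order. Aligner, annotation release and strand setting: not given in the sources used here. Transcripts were summed per gene by RefSeq name (29310 of 29868 matched by accession, 372 by symbol, 168 kept the listed symbol, 18 had no name). Tests covered the 10864 genes that reached 1 FPKM in 3 or more of the 6 libraries, by limma 3.58.1 (R 4.3.3, mean-variance trend) on log2(FPKM + 1), which understates changes of low genes, with Benjamini-Hochberg adjustment over all of them at 0.05. Depth estimates took the lowest values of single-transcript genes as 1 read. Same-numbered libraries deviated together from their group means (correlations 0.798, 0.809 and 0.703), so the replicate number was taken as a pair and used as a block in a second fit. Correlations for different numbers were −0.539 to −0.249. Deviations from a group mean add up to 0, so positive correlations of same numbers bring negative ones for different numbers. The labels name independent biological replicates without saying whether these are separate animals. Transcript shares were compared by exact permutation tests. Named genes were the 6 STAT genes, Prdm1, the 2 highest and 2 lowest of each list by log2 fold change, all 4 JAK kinases and the 3 genes most like each STAT gene; 2 genes that this rule names are not reported here. Pim1, Pim2 and Osm were named as the remaining non-overlapping Stat5 targets, and Igfbp4 as the other gene that passed, after their values were seen. The members and lists were chosen with earlier results of these data known. Alternatives were the pseudocount, filter, scaling, variance trend, single transcripts, the block and leaving out libraries. List medians without each library, and without the STAT gene that a list holds, were added after seeing the data.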

Additional observations from a re-analysis of the deposited data

How the results depend on the processing

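No STAT gene passed an adjusted p of 0.05 by limma in any of 18 alternatives. Leaving out libraries moved the log2 fold change from −0.24 to −0.12 for Stat2, −0.04 to 0.37 for Stat3, 0.05 to 0.46 for Stat4, −0.07 to 0.38 for Stat5a, −0.09 to 0.27 for Stat5b and −0.19 to −0.02 for Stat6. Stat3, Stat5a and Stat5b changed sign only where 1 library was left out without the block, which leaves its pair incomplete. Leaving out a whole numbered pair with the block kept every sign. Without replicate 1, 2 and 3, it gave 0.19, 0.19 and 0.15 for Stat3 and 0.19, 0.18 and 0.12 for Stat5a. For Stat5b it gave 0.13, 0.18 and 0.06. The other alternatives kept every sign. Differences in transcript share spanned −0.231 to 1.84 points for Stat5a in the sum of Stat5a and Stat5b, −4.01 to 2.91 for Stat3 NM_213659, −1.66 to 2.84 for Stat5a NM_001164062 and −2.07 to 4.78 for Stat5b NM_001113563, and changed sign there; Stat3 NM_213660 (−3.71 to −0.409) and NM_011486 (0.513 to 5.09) did not. Genes called over the whole table numbered 0 higher and 0 lower, 1 higher with median scaling, 1 higher and 1 lower with the replicate block, and 0 to 545 higher and 0 to 675 lower with libraries left out; the block gave 1, 7 and 545 higher and 2, 21 and 675 lower without replicate 1, 2 and 3, and none of the 6 STAT genes passed there. The cause of these changes was not tested. With 3 libraries a group and depths down to 18.1 M reads in the empty vector libraries, the 95% interval of each STAT gene without the block held 0.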

Other observations

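The gene before Stat5b on chromosome 11, Ghdc, and the gene after Stat3, Cavin1, were looked at after the shared profile of the 3 STAT genes was seen. Ghdc had 10.4, 8.82 and 8.12 FPKM in Blimp-1 replicates 1, 2 and 3, against 9.19, 7.49 and 7.59 FPKM in empty vector replicates 1, 2 and 3. It was higher with Blimp-1 in 3 of 3 pairs with overlapping groups, at a log2 fold change of 0.15 (SE 0.14, limma adjusted p = 0.998). Cavin1 was at most 0.238 FPKM in any library and was not tested. Nab2, next to Stat6 on chromosome 10, had a log2 fold change of 0.05 (SE 0.21, limma adjusted p = 0.998), beside −0.08 for Stat6.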
